A study of Mus musculus with 3 samples.

Results

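Serine and asparagine synthesis genes were followed in 3 epithelial lineages of the mouse stomach, together with the transcription factors and the stress gene that belong to the ATF4 response. The group has 8 genes of the 18194 named on the array: the enzymes Asns, Phgdh, Psat1, Psph and Shmt2, the transcription factors Atf4 and Ddit3, and the pseudokinase Trib3. Its members were chosen by gene symbol, with values of these same arrays known, so their values are a description and nothing about them was tested. They are covered by 20 probe sets that name 1 gene each.

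RNA of zymogenic (chief) cells, parietal cells and pit cells of mouse gastric corpus was hybridised to Affymetrix Mouse Genome 430 2.0 arrays, with 1 array per lineage and no replicate. Each lineage was collected by laser-capture microdissection as 3000 to 5000 cells from 4 to 5 mice, and 20 ng of RNA, pooled from several mice and dissections, was amplified. Zymogenic cells, the source of pepsinogen and further digestive enzymes, were taken from the base of gastric units as cells that stained for E-cadherin and bound neither of the lectins GSII and DBA, on slides other than those of the other lineages. Parietal cells, which secrete acid, were recognised by DBA binding and autofluorescence in the pit zone, and pit cells, the mucous cells near the surface, were DBA-negative, E-cadherin-positive cells of a layer 2 to 3 cells thick at the top of the same units. The labels give no strain, age, sex, genotype or treatment. For the zymogenic array, effects of slide and of lineage cannot be told apart. The labels name the molecule as nuclear RNA in one field and as total RNA in the design text, a point left unsettled by the files.

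Serine is made from the glycolytic intermediate 3-phosphoglycerate in successive steps catalysed by Phgdh, Psat1 and Psph, and Shmt2 then splits serine in mitochondria to glycine and a one-carbon unit. Asns makes asparagine from aspartate, with glutamine as the nitrogen donor. In mammalian cells the genes of these enzymes are known targets of ATF4, a transcription factor whose translation rises when kinases phosphorylate eIF2alpha during amino acid shortage or endoplasmic reticulum stress, so that its activity can change with no change in its mRNA. ATF4 acts at C/EBP-ATF response elements.

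The stretch around the annotated start of Asns is shown because it holds the core of such an element, that of Trib3 because it is the other match in the group, and that of Phgdh because the gene was high beside Asns but had no match. Each runs 5′ to 3′ from 250 bases before to 50 bases after the start in RefSeq's annotation of GRCm38.p6, at chr6:7693160-7693459 for Asns, chr2:152344011-152344310 for Trib3 and chr3:98339920-98340219 for Phgdh, all on the minus strand. Capitals mark matches to the letters TGATGNAA on either strand.
Asns: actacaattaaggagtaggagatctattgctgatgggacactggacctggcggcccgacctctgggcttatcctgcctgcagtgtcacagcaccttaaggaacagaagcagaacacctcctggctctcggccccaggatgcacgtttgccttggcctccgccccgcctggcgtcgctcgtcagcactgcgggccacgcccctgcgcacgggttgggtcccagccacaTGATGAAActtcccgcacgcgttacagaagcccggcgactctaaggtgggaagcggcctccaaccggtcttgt
Trib3: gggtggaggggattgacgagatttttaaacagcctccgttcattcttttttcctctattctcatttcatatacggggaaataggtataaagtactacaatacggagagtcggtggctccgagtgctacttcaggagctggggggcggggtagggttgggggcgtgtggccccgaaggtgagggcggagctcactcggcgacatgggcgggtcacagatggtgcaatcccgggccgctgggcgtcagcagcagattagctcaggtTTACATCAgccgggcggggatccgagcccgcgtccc
Phgdh: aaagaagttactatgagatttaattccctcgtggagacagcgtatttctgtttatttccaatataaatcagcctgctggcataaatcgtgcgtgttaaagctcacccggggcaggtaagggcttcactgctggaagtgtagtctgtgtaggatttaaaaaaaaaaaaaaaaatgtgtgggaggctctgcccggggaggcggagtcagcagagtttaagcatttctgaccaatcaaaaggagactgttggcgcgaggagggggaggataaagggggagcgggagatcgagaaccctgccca
The match of Asns lay 23 to 16 bases before the start on the gene's own strand, and that of Trib3 15 to 22 bases after it on the other strand, counting the first transcribed base as 1. All 8 genes had an entry, 9 windows in all, and the letters occurred in 2 of them, against 3.97% of the 32851 windows in the table. A match is a description of the sequence alone, and the window does not reach elements further away.

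Of the 8 genes, Asns and Phgdh were at least 2-fold higher in zymogenic cells than in both other lineages, and 0 were at least 2-fold lower. Atf4 was above the detection floor on all 3 arrays without such a difference. Psat1 and Shmt2 were above the floor on the zymogenic array alone. Their folds, under 2, are lower bounds, so whether they differed by 2-fold was not measurable. Psph, Ddit3 and Trib3 were under the floor on all 3 arrays. The floor, an intensity of 23.3, is the level that at least 95% of 80 olfactory and vomeronasal receptor probe sets stay under on every array, and lower values were raised to it before a ratio was taken. Among the 4138 genes above it on at least 1 array, 6.91% (286 genes) were at least 2-fold above both others on the zymogenic array and 11.1% (459 genes) were at least 2-fold below both. That split was 415 higher and 293 lower after quantile normalization, and 171 higher and 630 lower when the BioB and BioC hybridisation controls set the scale. As the genes were picked with this contrast known, nothing is read from their count.

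Without replicates, 2 descriptions of scatter stand beside the values. Where 1 gene had several probe sets, their log2 ratios between arrays scattered with an SD of 0.48, over 785 combinations of gene and array pair, which covers scatter of the measurement and not differences between mice. The 1186 genes above the floor on all 3 arrays had a median log2 difference of -0.64 for zymogenic minus parietal and -0.21 for zymogenic minus pit, so the zymogenic array was lower in general. Quantile normalization moved these medians to -0.08 and 0.05, and scaling to BioB and BioC to -1.80 and -0.20.

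**Figure D1:**
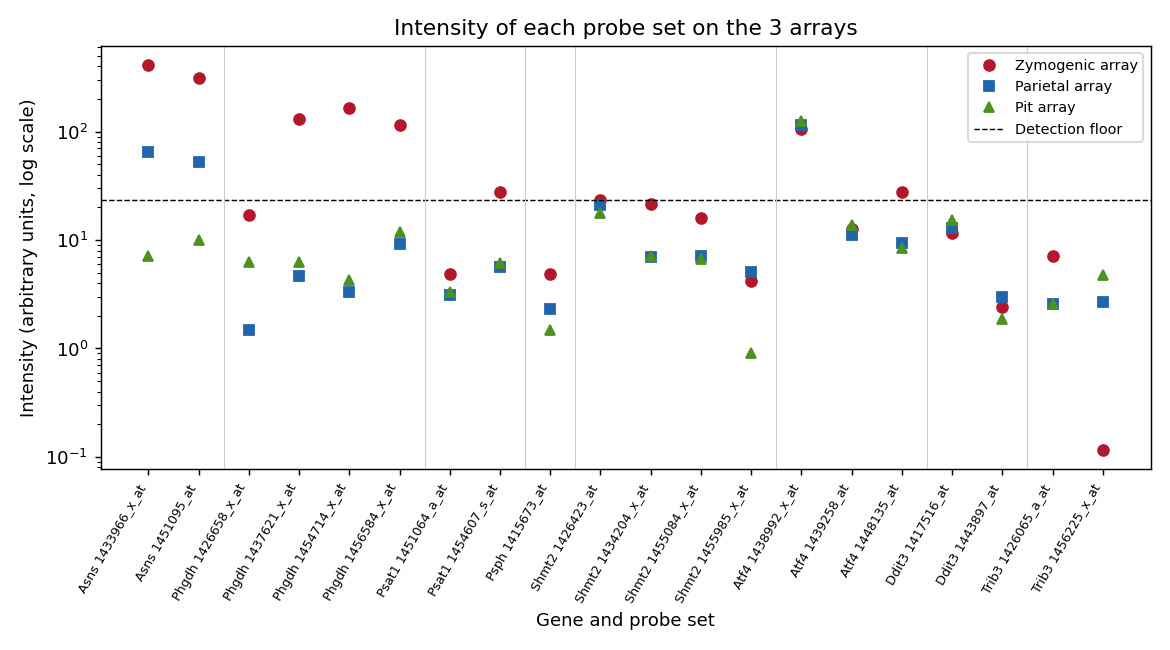
Intensity, in arbitrary units on a log axis, of the 20 probe sets of the 8 genes, with 1 point for each of the zymogenic, parietal and pit arrays and a dashed line at the detection floor of 23.3. Both Asns probe sets and 3 of 4 Phgdh probe sets stand above the floor on the zymogenic array and clear of the other arrays, while the Atf4 probe set 1438992_x_at has nearly the same value on all 3.

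Asns, asparagine synthetase, had an intensity of 409.7 in zymogenic cells, 65.2 in parietal cells and 7.17 in pit cells with probe set 1433966_x_at. With probe set 1451095_at, whose name marks it as specific to 1 transcript, the intensities were 315 in zymogenic cells, 51.9 in parietal cells and 10.04 in pit cells. Both probe sets thus put the zymogenic array highest, the parietal array between, and the pit array under the floor. The zymogenic value was 6.29-fold above the parietal value with the first and 6.06-fold with the second, and at least 17.6-fold and at least 13.5-fold above the pit value. On the log2 scale the first difference was 2.65 for zymogenic minus parietal, or 3.29 relative to the median shift between those arrays, and it was 1.43 under scaling to BioB and BioC. The parietal value in turn was at least 2.80-fold above the pit value. By the ratio of its zymogenic value to the higher of its other values, Asns ranked 60th among the 4138 genes.

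Phgdh, phosphoglycerate dehydrogenase, the first enzyme of serine synthesis, had an intensity of 163 in zymogenic cells, 3.30 in parietal cells and 4.25 in pit cells with probe set 1454714_x_at. Probe set 1437621_x_at gave 132 in zymogenic cells, 4.69 in parietal cells and 6.32 in pit cells, and 1456584_x_at gave 115 in zymogenic cells, 9.13 in parietal cells and 11.9 in pit cells. In these 3 probe sets only the zymogenic array was above the floor, so that the folds of zymogenic over both others are lower bounds, at least 7.03, 5.67 and 4.96. The fourth, 1426658_x_at, was under the floor on all arrays, at 17.1 in zymogenic cells, 1.48 in parietal cells and 6.33 in pit cells. Phgdh ranked 52nd by the same ratio. All 4 probe sets carry the suffix x, which the array's maker uses for probe sets with probes that can match other transcripts, and 2 further ones name Phgdh beside a predicted gene, so related sequences may add to these values.

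The later enzymes of the pathway gave values under the floor or just above it. Psat1, phosphoserine aminotransferase, had 27.5 in zymogenic cells, 5.60 in parietal cells and 6.19 in pit cells with probe set 1454607_s_at, at least 1.18-fold above both others, and its other probe set had 4.87, 3.13 and 3.34 on the zymogenic, parietal and pit arrays. Its zymogenic value stood only just over the floor, and the bound lay within the scatter between probe sets. Psph, phosphoserine phosphatase, had 4.84 in zymogenic cells, 2.33 in parietal cells and 1.49 in pit cells with its single probe set, so that no difference was measurable. Shmt2, mitochondrial serine hydroxymethyltransferase, had 23.3 in zymogenic cells, 20.9 in parietal cells and 17.8 in pit cells with probe set 1426423_at, where the zymogenic value barely passed the floor. The other 3 Shmt2 probe sets never passed the floor, with 21.6, 16.0 and 4.16 on the zymogenic array against 6.94, 7.13 and 5.11 on the parietal array and 7.10, 6.75 and 0.91 on the pit array. The zymogenic value was thus the highest in 3 of the 4 Shmt2 probe sets, in a range where values carry no order.

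Atf4, the transcription factor that gives the group its name, did not separate the lineages in its main probe set. The intensities of 1438992_x_at were 105 in zymogenic cells, 116 in parietal cells and 126 in pit cells. These 3 values span 0.27 on the log2 scale, less than the scatter between probe sets, and none of the neighbours in that order stood apart. The zymogenic minus parietal difference of -0.14 became 0.50 relative to the median shift, and the zymogenic minus pit difference of -0.27 became -0.06. Under scaling to BioB and BioC the log2 ratio of the zymogenic value to the higher of the others was -1.37, and after quantile normalization it was 0.14. Another probe set, 1448135_at, had 27.8 in zymogenic cells, 9.43 in parietal cells and 8.42 in pit cells, at least 1.20-fold above both, and 1439258_at was under the floor with 12.7 in zymogenic cells, 11.1 in parietal cells and 13.7 in pit cells. The main probe set carries the suffix x, so related sequences may add to its values. The names of both others, which read far lower, mark them as specific to 1 transcript. The probe sets of Atf4 therefore do not give 1 order of the arrays, and equal Atf4 mRNA in the lineages is not shown. Translation of Atf4 mRNA, where much of its known control lies, was not measured.

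Ddit3, known as CHOP, a factor induced in prolonged stress, had 11.5 in zymogenic cells, 12.9 in parietal cells and 15.4 in pit cells with 1417516_at, and 2.41 in zymogenic cells, 2.98 in parietal cells and 1.89 in pit cells with 1443897_at. Trib3, a pseudokinase that binds ATF4 and the kinase AKT, had 7.17 in zymogenic cells, 2.60 in parietal cells and 2.56 in pit cells with 1426065_a_at, and 0.12 in zymogenic cells, 2.69 in parietal cells and 4.74 in pit cells with 1456225_x_at. Every value of both genes was under the floor, and a ratio of such values was not taken. Over all 20 probe sets, the unfloored zymogenic value was the highest of the 3 arrays in 14, where the share over all probe sets naming 1 gene was 35.6%. In each of those 14 at least 1 array was under the floor, in several of them all 3 were, and values under the floor carry no order. The members were also picked with these values known, so nothing is read from this count.

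**Figure D2:**
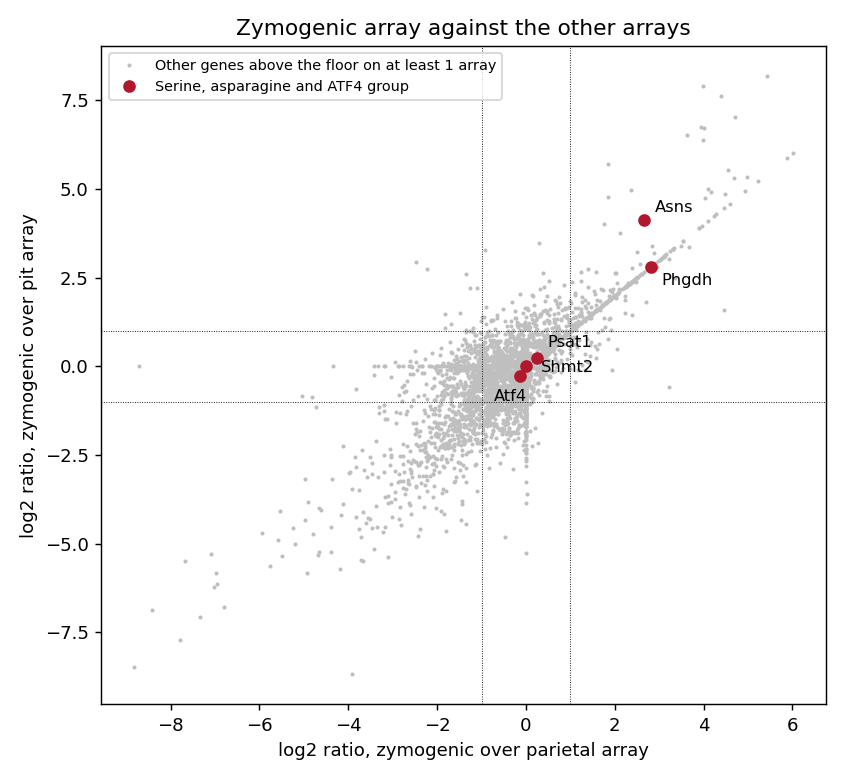
The log2 ratio of floored intensities, zymogenic over parietal array on the horizontal axis and zymogenic over pit array on the vertical axis, for the 4138 genes above the floor on at least 1 array, in grey, and for the 5 genes of the group among them, in red. Dotted lines mark 2-fold. Asns stands at 2.65 and 4.14 (this one a lower bound) and Phgdh at 2.81 on both axes as a lower bound. Psat1, Shmt2 and Atf4 stand near 0, where the values of Psat1 and Shmt2 are lower bounds on both axes.

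The genes whose floored log2 values over the 3 arrays lay nearest to those of Asns, by Euclidean distance among the 2285 genes above the floor on the zymogenic array, were Cep85 (0.69), Csf1r (0.77), Hc (0.99), Ubxn11 (1.04) and Trpm6 (1.07). None of them belongs to the gene lists used here. Nearest to Phgdh were LTO1 (0.00370), Otud7a (0.027), Suclg2 (0.034), Elavl3 (0.038) and Ror2 (0.041). All of these, like Phgdh, were under the floor on the parietal and pit arrays, so that their distance measures their zymogenic value alone.

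Other genes of amino acid metabolism and of the stress responses were counted in 7 lists, which share some genes. Outside the 8 members they hold 126 genes on the array, 67 of them above the floor on at least 1 array. Of these, 13 (19.4%) were at least 2-fold higher in zymogenic cells than in both other lineages, beside the 6.91% of all genes, and 1 was at least 2-fold lower, beside 11.1%. Their median log2 ratio of zymogenic to the mean of the others was 0.35, where that of all 4138 genes was -0.17. The lists were chosen with earlier results of these arrays known. The 13 genes include Xbp1 and Bhlha15, which are also in the list of zymogenic markers used below. Nothing is therefore read from this share.

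**Figure D3:**
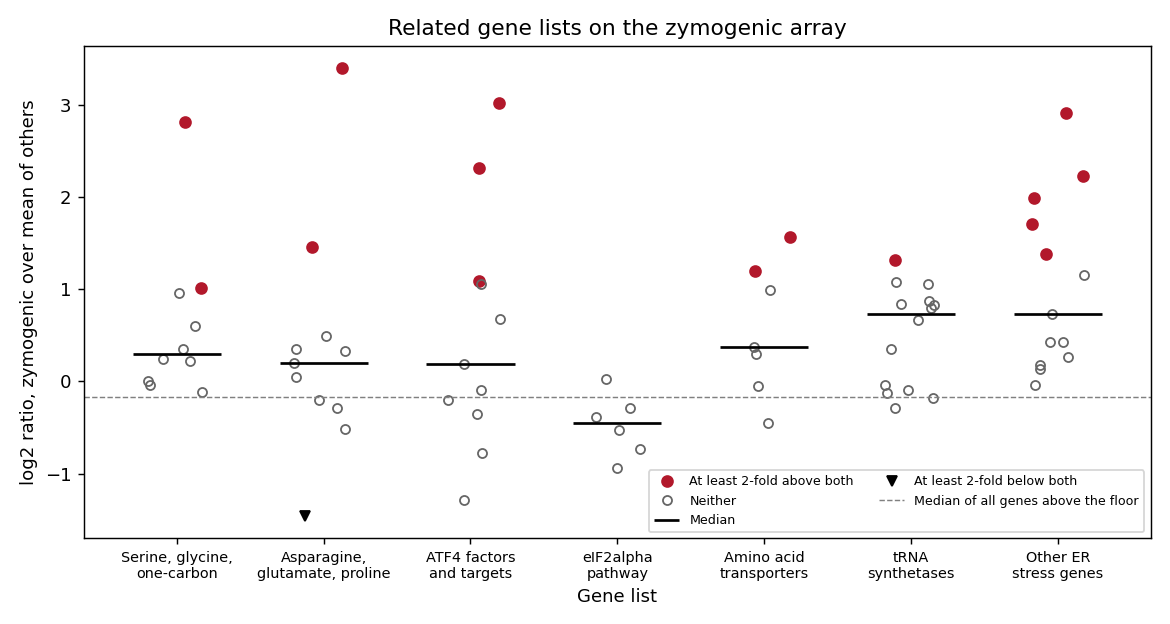
The log2 ratio of the zymogenic array to the mean log2 of the parietal and pit arrays for each gene above the floor on at least 1 array, in 7 gene lists, members of the group included. Filled red points are at least 2-fold above both other arrays, the black triangle (Gpt) is at least 2-fold below both, open points are neither, bars are list medians and the dashed line is the median of all 4138 genes, -0.17. The list medians run from -0.45 for the eIF2alpha pathway to 0.73 for the tRNA synthetases and the other endoplasmic reticulum stress genes.

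In serine, glycine and one-carbon metabolism, 10 of 22 genes were above the floor, and Phgdh and Mthfd2 were higher in zymogenic cells than in both other lineages by 2-fold or more. Mthfd2, a mitochondrial enzyme that oxidises the one-carbon unit released by Shmt2, had 46.9 in zymogenic cells, 14.9 in parietal cells and 2.56 in pit cells, at least 2.02-fold above both, and its further probe set was under the floor. The list had 0 genes at least 2-fold lower and a median log2 ratio of 0.30.

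Among genes of asparagine, glutamate and proline metabolism, 11 of 16 were above the floor, Asns and Aldh18a1 were at least 2-fold higher in zymogenic cells than in both other lineages, and Gpt was lower. Aldh18a1, which starts proline synthesis from glutamate, had 66.9 in zymogenic cells, 25.5 in parietal cells and 6.83 in pit cells, 2.63-fold above the parietal value and at least 2.88-fold above the pit value. Its further probe sets above the floor, 3 in number, had 59.5, 58.9 and 51.6 on the zymogenic array and were under the floor on both others. The remaining Aldh18a1 probe set was under the floor on all 3 arrays, at 3.81 in zymogenic cells, 5.60 in parietal cells and 4.45 in pit cells. It alone has a name that marks it as specific to 1 transcript, while the others carry the suffix x. Gpt, alanine aminotransferase, had 10.7 in zymogenic cells, against 77.0 in parietal cells and 53.2 in pit cells. Its other probe set was under the floor on all 3 arrays.

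The list of ATF4, its partner factors and its targets had 11 of 21 genes above the floor, with Nupr1, Herpud1 and Atf5 higher on the zymogenic array and 0 lower. Nupr1, a small stress-induced nuclear protein, had 510.1 in zymogenic cells, 14.7 in parietal cells and 170 in pit cells, and its other probe set had 454 in zymogenic cells, 17.9 in parietal cells and 167 in pit cells. The zymogenic value was 3.00-fold above the pit value, and the order of the parietal and pit arrays was the reverse of that of Asns. Herpud1, a protein of endoplasmic reticulum associated degradation, had 116 in zymogenic cells, 20.1 in parietal cells and 10.3 in pit cells, at least 4.98-fold above both. Its other probe set had 41.6 in zymogenic cells, 12.1 in parietal cells and 10.5 in pit cells, where the bound stays under 2-fold. Atf5, a transcription factor related to ATF4, had 49.3 in zymogenic cells, 10.7 in parietal cells and 13.4 in pit cells, at least 2.12-fold above both. The median log2 ratio over the list was 0.18.

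The list of the eIF2alpha pathway names the kinases, the translation factors and the phosphatase subunits upstream of ATF4. It had 6 of 16 genes above the floor, 0 at least 2-fold from both others on the zymogenic array in either direction, and a median of -0.45. The kinase genes Eif2ak1, Eif2ak2, Eif2ak3 and Eif2ak4 and the phosphatase subunit Ppp1r15a were under the floor on all 3 arrays in their main probe sets. Eif2s1, the gene of eIF2alpha itself, had no probe set in the counts. Neither the 0 nor the median therefore covers these genes. Eif2b2, a subunit of the exchange factor that eIF2alpha phosphorylation inhibits, had 68.0 in zymogenic cells, 89.5 in parietal cells and 107 in pit cells. Nck1, an adaptor protein of growth factor receptor signalling, had 5.17 in zymogenic cells, 63.9 in parietal cells and 1.70 in pit cells.

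Of 22 amino acid transporter genes, 7 were above the floor, and Slc3a2 and Slc38a5 were at least 2-fold higher in zymogenic cells, with 0 lower and a median of 0.37. Slc3a2, the heavy chain shared by several amino acid exchangers, had 85.0 in zymogenic cells, 30.8 in parietal cells and 26.6 in pit cells, 2.76-fold and 3.20-fold above them. Slc38a5, a carrier of glutamine, asparagine and serine, had 53.4 in zymogenic cells, 2.24 in parietal cells and 0.065 in pit cells, at least 2.29-fold above both.

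Cytosolic tRNA synthetases, which charge tRNAs with amino acids and include ATF4 targets, had 14 of 19 genes above the floor and a median of 0.73. Eprs, the glutamyl-prolyl enzyme, was at least 2-fold above both others, with 62.9 in zymogenic cells, 27.5 in parietal cells and 10.9 in pit cells, and 0 were lower. The further probe sets of Eprs were under the floor on all 3 arrays. Against the pit array alone, 7 of the 14 were at least 2-fold higher in zymogenic cells, beside 10.3% of all genes, and against the parietal array 1 was, beside 7.64%. A further comparison found 3 that were at least 2-fold higher in parietal than in pit cells, beside 12.0% of all genes. After quantile normalization 6 of them, not 1, were at least 2-fold above both others on the zymogenic array, beside 11.1% of all genes in that setting.

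The other branches of the endoplasmic reticulum stress response, those of XBP1 and ATF6 with their chaperones, had 13 of 19 genes above the floor, 5 higher in zymogenic cells than in both other lineages, 0 lower and a median of 0.73. The higher genes were Ero1b, Bhlha15, Hyou1, Dnajc3 and Xbp1, of which Bhlha15 and Xbp1 are also in the list of zymogenic markers. Ero1b, an oxidase for disulphide bonds of secreted proteins, had 174 in zymogenic cells, 5.01 in parietal cells and 13.5 in pit cells, at least 7.50-fold above both. Its further probe sets had 30.4 and 5.44 in zymogenic cells and were under the floor on the other arrays, so neither reached 2-fold. Bhlha15, the secretory cell factor also called MIST1, had 109 in zymogenic cells, 2.49 in parietal cells and 0.53 in pit cells, at least 4.68-fold above both. Its other probe set was under the floor on all 3 arrays, at 7.06 in zymogenic cells, 3.43 in parietal cells and 7.96 in pit cells. Hyou1, a chaperone, had 162 in zymogenic cells, 39.8 in parietal cells and 42.0 in pit cells with its main probe set. Its other probe set above the floor had 22.4 in zymogenic cells, 32.7 in parietal cells and 19.2 in pit cells, so the probe sets of Hyou1 do not give the same order. Dnajc3, a co-chaperone that inhibits an eIF2alpha kinase, had 128 in zymogenic cells, 53.9 in parietal cells and 44.5 in pit cells. Of its further probe sets 1 passed the floor, with 25.4 in zymogenic cells, 14.1 in parietal cells and 10.7 in pit cells. Xbp1, the factor of its own branch, had 539 in zymogenic cells, 263 in parietal cells and 103 in pit cells.

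The collections were checked by their markers, and fewer cells of a type and less RNA per cell cannot be told apart in such pools. Of 8 zymogenic markers 5 were at least 2-fold higher in zymogenic cells and 1 was lower, Tff2, a trefoil peptide also made by neck cells, at 21.9 in zymogenic cells, 402 in parietal cells and 110 in pit cells. Pga5 and Rab3d were within 2-fold of at least 1 other array, and neither was highest in zymogenic cells. Pga5 had 30.9 in zymogenic cells, 47.6 in parietal cells and 12.7 in pit cells. Rab3d was lowest in zymogenic cells, at 42.6, against 52.1 in parietal cells and 57.6 in pit cells. The list had a summed intensity of 15810 in zymogenic cells, 1220 in parietal cells and 331 in pit cells. Pit markers summed to 95.2 in zymogenic cells, 20163 in parietal cells and 24030 in pit cells, and parietal markers to 1303 in zymogenic cells, 5745 in parietal cells and 422 in pit cells. The parietal array thus also carried pit and zymogenic markers, and the zymogenic array carried some of the parietal ones. Atp4b, the beta subunit of the proton pump, had 793 in zymogenic cells, 4402 in parietal cells and 102 in pit cells. Atp4a, its catalytic subunit, had 261 in zymogenic cells, 214 in parietal cells and 12.5 in pit cells. Of the 12 parietal markers 1, the potassium channel gene Kcnq1, was at least 2-fold higher in zymogenic cells, at 60.5, than in parietal cells, at 29.1, and pit cells, at 3.71. In the other direction 1, Car2, was at least 2-fold lower, under the floor at 15.0 in zymogenic cells against 731 in parietal and 210 in pit cells. Kcnj15 was also under the floor in zymogenic cells, at 7.49, against 39.4 in parietal and 33.1 in pit cells. A further 5 were under the floor on all 3 arrays. The part of parietal cell RNA in the zymogenic values was not tested. Asns on the parietal array had 15.9% of its zymogenic value, against 4.73% for Pgc (pepsinogen C), 2.34% for the chitinase Chia1 and 27.6% for Clps (colipase). Cblif (gastric intrinsic factor) had 558 in zymogenic cells and was under the floor in parietal cells, at 2.62, so its percentage was not measurable. Whether zymogenic RNA on the parietal array took part in its Asns value was not tested.

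Some markers of 2 further cell types were also higher on the zymogenic array. Of 18 pancreatic acinar markers on the array, 6 were above the floor and 4, Pla2g1b, Clps, Pnliprp1 and Pnliprp2, were at least 2-fold higher in zymogenic cells. All 18 summed to 21993 in zymogenic cells, 3810 in parietal cells and 587 in pit cells. Most of the zymogenic sum came from Pla2g1b, at 10937.7, and Clps, at 10450.5. Cpa1, Cpb1, Cel, Ctrl, Cela1, Cela2a, Cela3b, Sycn, Gp2, Zg16, Cuzd1 and Ptf1a were under the floor on all 3 arrays. Prss2 and Ctrb1 were above the floor and had their lowest value in zymogenic cells. Prss2 had 94.2 in zymogenic cells, 104 in parietal cells and 184 in pit cells. Ctrb1 had 23.4 in zymogenic cells, 31.7 in parietal cells and 47.1 in pit cells. Of 8 endocrine markers, 5 were above the floor and Chga, Chgb, Sst and Ghrl were higher on the zymogenic array, with sums of 969.7 in zymogenic cells, 51.9 in parietal cells and 88.3 in pit cells. The part of endocrine cells in the Asns and Phgdh values was not tested. Neck, proliferation and fibroblast or muscle lists had 0 genes at least 2-fold higher in zymogenic cells. Above the floor were only 1 of 3 neck genes and 2 of 7 proliferation genes, and 5 of 8 fibroblast or muscle genes. The 0 therefore does not show that such cells were absent. The blood and immune list, with 3 of 9 genes above the floor, had 1 higher gene, Cd79a. It had 48.8 in zymogenic cells, 0.45 in parietal cells and 4.99 in pit cells.

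**Figure D4:**
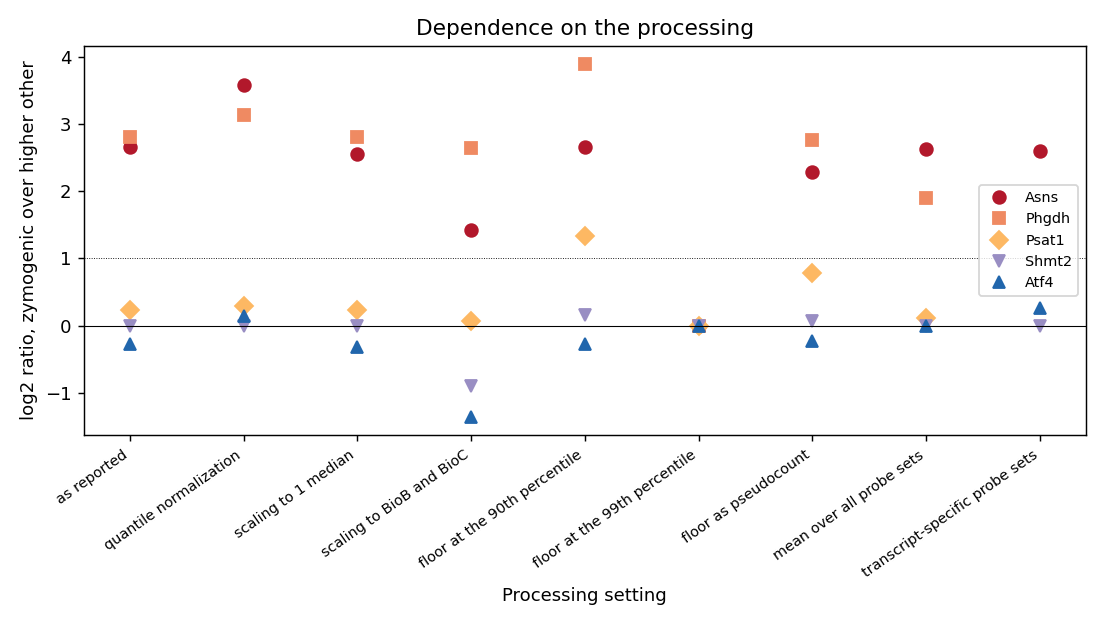
The log2 ratio of the zymogenic array to the higher of the other arrays for Asns, Phgdh, Psat1, Shmt2 and Atf4 under 9 processing settings, with a dotted line at 2-fold. Asns stays between 1.43 and 3.58 and Phgdh between 1.91 and 3.90 except with the floor at the 99th percentile, where all are 0. Phgdh and Psat1 have no point with transcript-specific probe sets.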

How the data were processed

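The authors deposited 1 intensity per probe set and array on a linear scale, from 0 to at most 12079, with array medians of 4.50 to 4.81. Probe summary, background correction and scaling are not given in the sources used. These intensities were used without further scaling. Of 45101 probe sets, 34958 name 1 gene in the platform's table and 932 name several, which were left out of every count. Symbols of 34754 probe sets were updated through the gene identifier to RefSeq (GRCm38). The probe set with the highest mean stood for its gene, and every probe set of the 8 genes is reported. Values under the floor of 23.3 were raised to it before log2. With 1 array per lineage no test was made, and the number of arrays limits the precision. Named genes of a list are those at least 2-fold from both other arrays, at most 4 each way, or otherwise the 2 with the highest value. Xbp1, the next after these 4 among the endoplasmic reticulum stress genes, is named as a zymogenic marker. The members and the lists were chosen with earlier results of these data known. Alternatives were 3 scalings, 2 floors, a pseudocount, 2 ways of choosing probe sets and a 4-fold threshold. Python 3.11.15, numpy 2.4.6, pandas 2.3.3 and matplotlib 3.10.9 were used, and the counts were tested on simulated data.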

Additional observations from a re-analysis of the deposited data

How the results depend on the processing

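With 1 array per lineage, the number of arrays limits every value, and a fold against an array under the floor is only a bound. No paired analysis was possible because each lineage has 1 array. The number of the 8 genes at least 2-fold higher in zymogenic cells than in both other lineages was 2 except under 3 alternatives. It was 3 with a floor of 10.9, from the 90th percentile of the receptors, where Psat1 was added, 1 with transcript-specific probe sets, since no probe set of Phgdh is of that kind, and 0 with a floor set by the 99th percentile of the receptors, an intensity of 868, which left 81 genes. Against the parietal array alone it was also 2, and against the pit array alone 2. The list counts below stand beside the share of all genes above the floor that were higher in the same setting. That share was 7.43% with the floor of 10.9, 14.8% with the floor at 868 and 11.1% after quantile normalization. It was 2.73% with BioB and BioC, 6.96% with the pseudocount and 3.36% with averaged probe sets. Transcript-specific probe sets gave 7.31% and the 4-fold threshold 2.59%. With the floor at 868 the numbers higher were 0 in every list, and 0 were lower among asparagine, glutamate and proline genes. With the floor of 10.9 the numbers higher were 5 for serine, glycine and one-carbon genes, 4 for asparagine, glutamate and proline genes, 4 for transporters and 1 for the eIF2alpha pathway, and 1 gene was lower in the ATF4 list and 1 in the eIF2alpha pathway. After quantile normalization 6 tRNA synthetases were higher. Scaling to BioB and BioC, which average 711 for the zymogenic, 303 for the parietal and 712 for the pit array, gave 1 higher gene for serine, 1 for asparagine, 1 for transporters, 0 for tRNA synthetases and 2 for the other endoplasmic reticulum stress genes, and 2 lower for asparagine and 1 lower in the ATF4 list. With the floor as a pseudocount, 0 tRNA synthetases and 3 endoplasmic reticulum stress genes were higher. When all probe sets of a gene were averaged, the numbers higher were 1 for serine, 0 for tRNA synthetases and 3 for endoplasmic reticulum stress genes, and 0 were lower for asparagine. Transcript-specific probe sets gave 1 higher for serine, 1 and 0 lower for asparagine, 0 for the ATF4 list and 1 for transporters. At 4-fold the numbers higher were 1 for serine, 1 and 0 lower for asparagine, 1 for the ATF4 list, 0 for transporters, 0 for tRNA synthetases and 2 for endoplasmic reticulum stress genes. Over all genes, the numbers lower were 865 of 8979 with the floor of 10.9, 14 of 81 with the floor at 868 and 630 of 6267 with BioB and BioC. They were 236 of 4162 with averaged probe sets, 274 of 2847 with transcript-specific probe sets and 163 of 4138 at 4-fold. Apart from the effect of fewer genes or probe sets, the cause of the changes between settings was not tested. The log2 ratio of Atf4 to the higher of the other arrays ran from -1.37 with BioB and BioC to 0.26 with transcript-specific probe sets, and that of Psat1 passed 2-fold with the 90th percentile floor, at 1.33.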

Other observations

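A pair of probe sets that name Phgdh together with a predicted gene stood outside the counts. The one shared with Gm6756 had an intensity of 136 in zymogenic cells, 2.24 in parietal cells and 7.74 in pit cells, close to the values of the 3 probe sets that name Phgdh alone and were above the floor. The one shared with Gm8096 was under 1 on every array, at 0.90 in zymogenic cells, 0.097 in parietal cells and 0.041 in pit cells.

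Chac1, a glutathione-degrading enzyme and ATF4 target, Gnmt, a glycine methyltransferase, and Aldh1l2, a mitochondrial one-carbon enzyme, were named after their values were seen. Each was above the floor on the zymogenic array alone. Chac1 had 26.4 in zymogenic cells, 4.10 in parietal cells and 2.29 in pit cells, Gnmt had 45.3 in zymogenic cells, 0.43 in parietal cells and 1.21 in pit cells, and Aldh1l2 had 29.6 in zymogenic cells, 7.28 in parietal cells and 9.58 in pit cells. Their bounds, at least 1.14-fold, 1.95-fold and 1.27-fold above both other arrays, stay under 2-fold.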
